A study of Rattus norvegicus with 6 samples.

Results

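The 8 genes described here, Pdgfrb, Rgs5, Cspg4, Notch3, Kcnj8, Abcc9, Higd1b and Tbx18, are markers of pericytes, the mural cells that wrap capillaries and carry little of the contractile machinery of arterial smooth muscle. They were chosen by symbol, and all 8 were found among the 22864 genes of the table and were among the 15531 that passed the filter on low counts. The libraries are bulk RNA of rat dorsal root ganglia L4 to L6 on the operated side, from wild-type males, taken on day 7, with 2 libraries in each of 3 groups. All rats were anaesthetised with pentobarbital. CPIP+Veh and CPIP+ETA rats had a hind limb tied off above the foot with an O-ring for 3 h, the ischaemia and reperfusion model of limb pain known as CPIP, and Sham+Veh rats had no ring. From day 2 the spinal canal was injected daily with vehicle (Veh) in the Sham+Veh and CPIP+Veh rats and, in CPIP+ETA rats, with etanercept (ETA), a decoy TNF receptor. Strain, age and whether a library is 1 animal or a pool were not given in the sources used here, so p-values measure only the spread between these libraries, which may be technical.

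Pericytes share the capillary basement membrane with endothelial cells, which recruit them by secreting PDGF-B, the ligand of the receptor made from Pdgfrb. Notch3 receives signals from Jagged and Delta ligands on neighbouring cells and keeps mural cells differentiated. A potassium channel that opens when ATP runs low, built from the Kcnj8 and Abcc9 proteins, sets the membrane potential of pericytes and so capillary tone. In the sensory ganglion, which is densely supplied with leaky capillaries, these cells are a small minority beside neurons, satellite glia, Schwann cells and fibroblasts.

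Library totals ran from 18284891 to 19981081 estimated reads, and levels are given as CPM, the count scaled to the library total, after TMM scaling between libraries. Of the 6 libraries, CPIP+ETA 1 had the lowest summed level of the pericyte genes (121.9 CPM, against 131.0 to 160.7 CPM in the others). That sum rests mainly on Pdgfrb, Cspg4 and Notch3. CPIP+ETA 1 was also lowest for the fibroblast list (2330 CPM, against 2872 to 3925 CPM) and for the list of Schwann cell and oligodendrocyte precursor genes (6930 CPM, against 8330 to 10530 CPM). Not all lists were lowest there. By sum, endothelial genes were lowest in CPIP+Veh 2 (242.7 CPM), smooth muscle contractile genes in CPIP+Veh 1 (136 CPM) and satellite glial genes in CPIP+ETA 2 (4384 CPM). In CPIP+ETA 1 these summed to 249.4, 142.6 and 4622 CPM. The satellite glial sum rests mainly on Apoe (3949 CPM in CPIP+ETA 2). With log2 CPM centred on each gene's mean and averaged over the list, satellite glial genes were highest in CPIP+ETA 2 (0.0543). On that measure endothelial genes were equally low in CPIP+Veh 2 and CPIP+ETA 1 (-0.147 in each).

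No pericyte gene passed edgeR's test in any comparison. The member with the lowest p was Tbx18, a transcription factor of the T-box family found in pericytes and vascular smooth muscle, with means of 11.3, 8.54 and 5.29 CPM in Sham+Veh, CPIP+Veh and CPIP+ETA. Rgs5 was lower in CPIP+Veh than in the other groups, Cspg4 was lower in every CPIP library than in sham, and Abcc9 was highest with etanercept. Pdgfrb and Notch3, receptors used here as mural cell markers, had no unadjusted p under 0.05 in any comparison. With edgeR's quasi-likelihood test and Benjamini-Hochberg adjustment over 15531 genes, the numbers of members called were 0, 0 and 0 of 8 for CPIP+Veh against Sham+Veh, CPIP+ETA against CPIP+Veh and CPIP+ETA against Sham+Veh, where 0.0193%, 0% and 0.0193% of all genes were called. Those with an unadjusted p under 0.05 numbered 1 (Rgs5), 2 (Rgs5 and Tbx18) and 3 (Cspg4, Abcc9 and Tbx18), against 4.94%, 5.15% and 6.37% of all genes. DESeq2 called 1 member, Tbx18, in CPIP+ETA against Sham+Veh, where it called 0.262% of 17163 genes, and 0 members in the other comparisons, where it called 0.246% and 0.113%. Groups did not overlap for 3 lower and 1 higher member in CPIP+Veh against sham (19.5% and 17.6% of all genes), for 2 and 2 in etanercept against vehicle (16.9% and 15.7%), and for 3 and 2 in CPIP+ETA against sham (18.5% and 17.2%). In the test of any difference among the 3 groups 0 members were called and 3 (Tbx18, Cspg4 and Rgs5) had an unadjusted p under 0.05, where 0.00644% and 5.52% of all genes did.

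**Figure D1:**
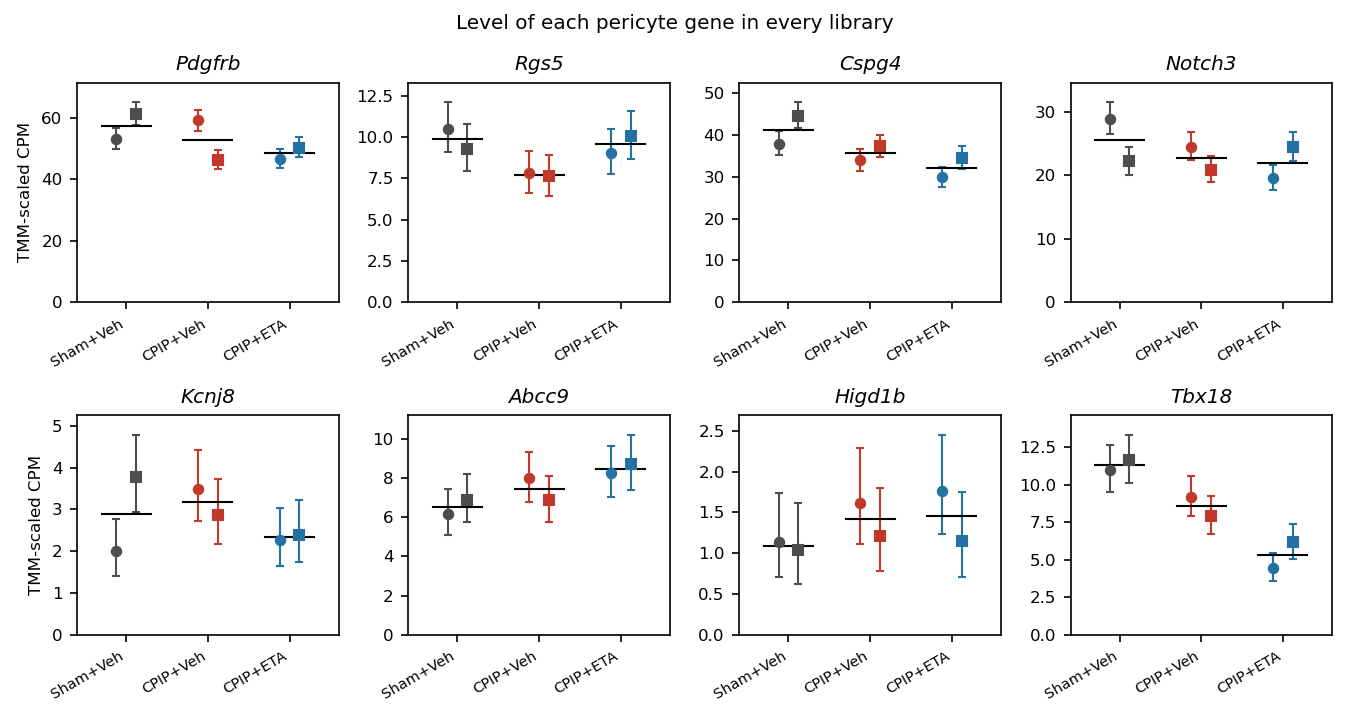
Level of each pericyte gene (TMM-scaled CPM, linear axes from 0) in the 6 libraries, with circles for replicate 1 and squares for replicate 2. Error bars are exact 95% Poisson intervals of the count, which cover counting error only, and black lines are group means. The Tbx18 libraries step down from 11.0 and 11.6 CPM in sham to 4.43 and 6.15 CPM with etanercept.

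Pdgfrb (gene identifier 24629), the receptor tyrosine kinase through which PDGF-B recruits pericytes, was counted 980 and 1119 times in Sham+Veh, 1167 and 918 times in CPIP+Veh, and 926 and 923 times in CPIP+ETA. These are 53.1 and 61.2 CPM, 59.1 and 46.3 CPM, and 46.6 and 50.3 CPM. The CPIP+Veh libraries spanned almost the whole range of the gene, and only CPIP+ETA and Sham+Veh did not overlap. The log2 fold change was -0.12 for CPIP+Veh against sham (SE 0.13, 95% interval -0.42 to 0.19, adjusted p = 0.957 with edgeR). It was -0.12 for etanercept against vehicle (SE 0.13, interval -0.43 to 0.18) and -0.24 for CPIP+ETA against sham (SE 0.13, interval -0.54 to 0.066), with adjusted p = 0.946 and 0.828. The sign of the CPIP+Veh difference rested on CPIP+Veh 2, without which it was 0.048, and that of the etanercept difference on CPIP+Veh 1, without which it was 0.069.

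Notch3 (56761), the Notch receptor of mural cells whose mutation causes a hereditary small vessel disease in humans, stood at 29.0 and 22.2 CPM in Sham+Veh, 24.5 and 20.9 CPM in CPIP+Veh, and 19.6 and 24.4 CPM in CPIP+ETA. All 3 groups overlapped. Its log2 fold changes were -0.17 (SE 0.17), -0.046 (SE 0.17) and -0.22 (SE 0.17) for CPIP+Veh against sham, CPIP+ETA against CPIP+Veh and CPIP+ETA against sham, and the lowest adjusted p was 0.888 (edgeR). The 95% interval of the last ran from -0.62 to 0.18, which is a fold of 0.651 to 1.13. Signs turned without Sham+Veh 1 (0.038, CPIP+Veh against sham) and, for etanercept against vehicle, without CPIP+Veh 1 (0.078) or CPIP+ETA 1 (0.11).

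Cspg4 (81651), the NG2 proteoglycan on the surface of pericytes, stood at 38.0 and 44.6 CPM in Sham+Veh, 34.1 and 37.3 CPM in CPIP+Veh, and 29.9 and 34.6 CPM in CPIP+ETA. Every CPIP library lay below both sham libraries, as was true of 8.38% of all genes, and the CPIP groups overlapped each other. The log2 fold change against sham was -0.21 (SE 0.11, adjusted p = 0.948) in CPIP+Veh and -0.36 (SE 0.11, adjusted p = 0.665, interval -0.62 to -0.092) in CPIP+ETA, with -0.15 (SE 0.11, adjusted p = 0.938) for etanercept against vehicle (edgeR). NG2 is also made by oligodendrocyte precursors and some Schwann cells. Of their markers, Olig2 was counted 1 time in the 6 libraries together and Olig1 and Gpr17 at most 3 times in any library, while the Schwann lineage factor Sox10 stood between 109.9 and 124.7 CPM. The part of Schwann cells in the Cspg4 values was not tested.

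The channel subunits are next to each other in the rat genome: no other protein-coding gene lies between Kcnj8 and Abcc9 in the RefSeq annotation of GRCr8, a later assembly than that of the counts. Their promoters are shown because the genes form 1 channel and are neighbours but gave differences of opposite sign in CPIP+ETA against either other group. Each window holds 250 bases before and 50 after the annotated start, from RefSeq on GRCr8, read on the minus strand (chr4:177246499-177246798 and chr4:177386299-177386598), with GC boxes (GGGCGG, found here on the opposite strand as its complement) in capitals.
Kcnj8: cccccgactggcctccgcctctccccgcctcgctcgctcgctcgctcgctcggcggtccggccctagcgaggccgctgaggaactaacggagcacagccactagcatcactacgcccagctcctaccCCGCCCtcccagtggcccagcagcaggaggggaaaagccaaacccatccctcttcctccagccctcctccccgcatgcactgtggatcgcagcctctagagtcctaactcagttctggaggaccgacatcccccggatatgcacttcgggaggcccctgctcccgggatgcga
Abcc9: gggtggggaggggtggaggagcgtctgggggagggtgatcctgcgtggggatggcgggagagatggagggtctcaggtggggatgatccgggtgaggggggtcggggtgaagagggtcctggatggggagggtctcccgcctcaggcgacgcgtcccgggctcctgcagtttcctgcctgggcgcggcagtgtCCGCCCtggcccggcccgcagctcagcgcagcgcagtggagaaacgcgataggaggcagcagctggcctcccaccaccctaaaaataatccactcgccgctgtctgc
Each promoter held 1 GC box, as did at least 1 in 33.1% of the 33469 promoters of the table on either strand. The TATA motif TATAAA was in neither window (14.2% of all promoters hold it).

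Kcnj8 (25472), the pore subunit Kir6.1, was counted 37 and 69 times in Sham+Veh, 69 and 57 times in CPIP+Veh, and 45 and 44 times in CPIP+ETA, which is 2.00 and 3.78, 3.49 and 2.88, and 2.27 and 2.40 CPM. Both sham libraries lay at the extremes of the 6, and the coefficient of variation within sham was 43.4%, where counting error alone gives 13.7%. The CPIP+ETA libraries lay below both CPIP+Veh libraries (log2 fold change -0.45, SE 0.33, interval -1.24 to 0.34, adjusted p = 0.938 with edgeR). Against sham the log2 fold change was 0.14 (SE 0.33) in CPIP+Veh, which turned without Sham+Veh 1 (-0.24) or CPIP+Veh 1 (-0.0052), and -0.31 (SE 0.33) in CPIP+ETA, which turned without Sham+Veh 2 (0.22).

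Abcc9 (25560), the sulphonylurea receptor SUR2 that regulates the pore, stood at 6.17 and 6.90 CPM in Sham+Veh, 8.00 and 6.86 CPM in CPIP+Veh, and 8.26 and 8.71 CPM in CPIP+ETA. Both CPIP+ETA libraries were above the other 4, a pattern of 6.45% of all genes, while CPIP+Veh overlapped sham. The log2 fold change of CPIP+ETA was 0.38 against sham (SE 0.14, interval 0.044 to 0.71, adjusted p = 0.76) and 0.19 against CPIP+Veh (SE 0.14, adjusted p = 0.938), and that of CPIP+Veh against sham was 0.19 (SE 0.14, adjusted p = 0.951; edgeR). The sign of each Abcc9 difference was the same in all 13 alternatives. Kcnj11 and Abcc8, which form the corresponding channel of neurons and insulin-secreting cells, had log2 fold changes of -0.026 and -0.080 in CPIP+ETA against sham (adjusted p for any difference among the groups 0.928 and 0.919). Of the 4 genes listed as channel partners, which include the inward rectifiers Kcnj2 and Kcnj10, 1, 3 and 0 lay above 0 in the 3 comparisons, and 0 were called by edgeR or DESeq2 or had an unadjusted p under 0.05.

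Rgs5 (54294), a brake on G protein signalling that is among the most used pericyte markers, stood at 10.5 and 9.30 CPM in Sham+Veh, 7.80 and 7.62 CPM in CPIP+Veh, and 9.07 and 10.1 CPM in CPIP+ETA. CPIP+Veh lay below both other groups, which overlapped each other; 6.72% of all genes had CPIP+Veh lowest in this way. The log2 fold change was -0.36 for CPIP+Veh against sham (SE 0.12, interval -0.66 to -0.067, adjusted p = 0.938 with edgeR). It was 0.31 for etanercept against vehicle (SE 0.12, interval 0.017 to 0.61, adjusted p = 0.938 with edgeR). These comparisons share the CPIP+Veh libraries, whose values enter them with opposite sign. CPIP+ETA against sham gave -0.050 (SE 0.12, interval -0.34 to 0.24), which turned to 0.049 without Sham+Veh 1 and to 0.032 without CPIP+ETA 1. The counts behind these levels were 151 to 194 per library.

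Higd1b (287738), a small protein of the hypoxia-induced domain family, was the least counted member, with 21 and 19 reads in Sham+Veh, 32 and 24 reads in CPIP+Veh, and 35 and 21 reads in CPIP+ETA. The levels were 1.14 and 1.04, 1.62 and 1.21, and 1.76 and 1.14 CPM. Every CPIP library lay above both sham libraries, as in 7.42% of all genes, but CPIP+ETA 2 exceeded Sham+Veh 1 by 1.144 against 1.137 CPM, with the same count of 21 in each. The exact 95% Poisson interval of that count is 13.0 to 32.1 reads. Log2 fold changes against sham were 0.38 (SE 0.36, interval -0.49 to 1.24) in CPIP+Veh and 0.42 (SE 0.36, interval -0.45 to 1.28) in CPIP+ETA. Etanercept against vehicle gave 0.041 (SE 0.35), which turned to -0.15 without CPIP+Veh 2 and to -0.30 without CPIP+ETA 1. The adjusted p was 0.892 or more in all 3 comparisons (edgeR).

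Tbx18 (315870) was the member with the lowest p in both comparisons with CPIP+ETA. It was counted 203 and 212 times in Sham+Veh, 181 and 157 times in CPIP+Veh, and 88 and 113 times in CPIP+ETA, which is 11.0 and 11.6, 9.16 and 7.92, and 4.43 and 6.15 CPM. The 3 groups did not overlap and descended in the order sham, vehicle, etanercept, a pattern of 249 of 15531 genes (1.6%). In CPIP+ETA against sham the log2 fold change was -1.10 (SE 0.18, interval -1.52 to -0.67), a level 0.468 times that of sham, with an adjusted p = 0.351 (edgeR). Its unadjusted p took place 23 among the 15531 genes. In etanercept against vehicle it was -0.69 (SE 0.18, interval -1.12 to -0.26, adjusted p = 0.938) and in CPIP+Veh against sham -0.40 (SE 0.17, interval -0.81 to 0.0073, adjusted p = 0.938; edgeR). The test of any difference among the 3 groups gave an adjusted p = 0.527 (edgeR). DESeq2 called the difference between CPIP+ETA and sham (-1.09, adjusted p = 0.0311), and the adjusted p over all 13 alternatives of that comparison ran from 0.0311 to 0.983. Its value was -0.87 without CPIP+ETA 1 and -1.34 without CPIP+ETA 2, and below 0 in all 13.

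The Tbx18 promoter is shown as that of the member with the largest difference, and the Rgs5 promoter as that of the member whose CPIP+Veh libraries lay below both other groups. They are chr8:97559916-97560215 on the minus strand and chr13:84380827-84381126 on the plus strand (RefSeq, GRCr8, the same window around the start as above). In Tbx18 the capitals mark the core TGGGAA bound by the Notch effector RBPJ, on the opposite strand, and in Rgs5 a GC box on the opposite strand.
Tbx18: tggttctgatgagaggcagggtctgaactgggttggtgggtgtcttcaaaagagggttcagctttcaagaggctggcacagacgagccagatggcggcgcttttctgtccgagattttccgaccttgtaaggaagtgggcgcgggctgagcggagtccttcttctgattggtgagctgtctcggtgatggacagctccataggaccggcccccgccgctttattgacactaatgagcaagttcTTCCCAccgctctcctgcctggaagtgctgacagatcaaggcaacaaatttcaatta
Rgs5: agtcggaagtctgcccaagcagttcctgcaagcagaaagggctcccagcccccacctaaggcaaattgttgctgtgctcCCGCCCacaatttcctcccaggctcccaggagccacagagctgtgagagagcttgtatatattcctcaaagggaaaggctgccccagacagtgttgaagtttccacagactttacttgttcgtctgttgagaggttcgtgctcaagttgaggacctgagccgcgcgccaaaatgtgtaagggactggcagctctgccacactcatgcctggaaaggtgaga
TGGGAA was in 2 of the 6 members' promoters found in the table (Tbx18 and Notch3) and in 25.7% of all promoters, on either strand. The T-box half-site AGGTGT was in 0 of the 6 and in 13.6% of all. GC boxes were in 5 of the 6, Tbx18 being the exception. Pdgfrb and Higd1b were not matched.

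**Figure D2:**
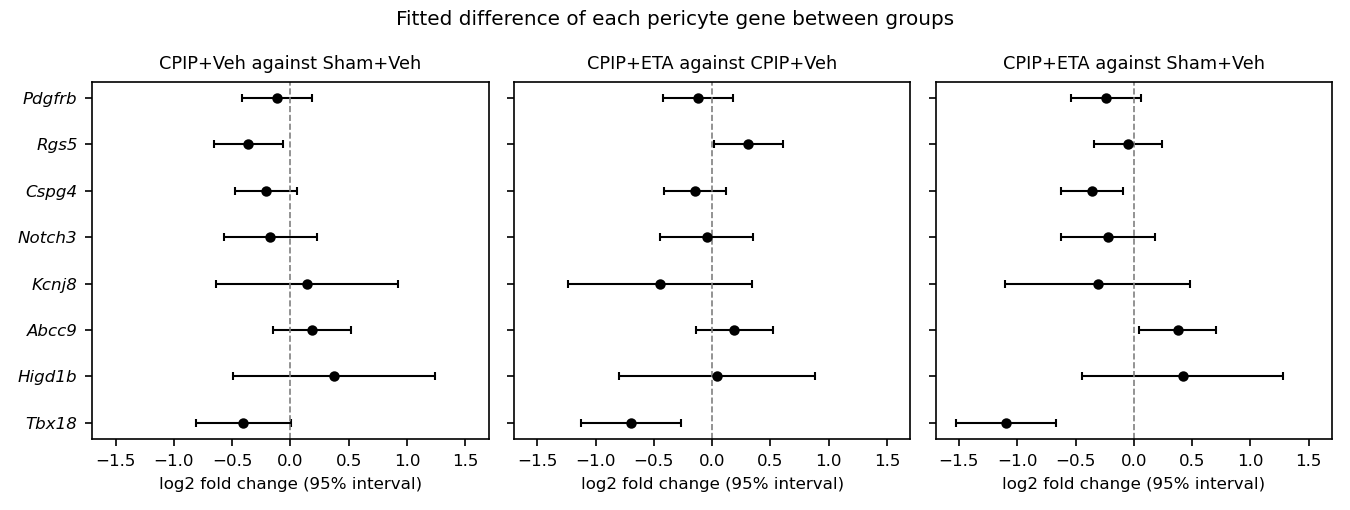
Fitted log2 fold change of each pericyte gene in the 3 comparisons, from edgeR's quasi-likelihood fit of all 6 libraries, with 95% intervals that are not adjusted for the number of genes. Intervals are widest for the sparsely counted Kcnj8 and Higd1b, and that of Tbx18 lies farthest from 0, from -1.52 to -0.67 in CPIP+ETA against Sham+Veh.

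Genes of the contractile programme of smooth muscle were compared with the pericyte genes, since pericytes carry little of it. In CPIP+Veh against sham 5 of the 8 pericyte genes lay below 0, and their median log2 fold change came to -0.15; the median of all genes was -0.0031 and 51% of them lay below 0. Of the 11 tested contractile genes 10 lay below 0 (median -0.65), and 10 lay wholly below sham, as 19.5% of all genes did. Acta2, smooth muscle actin, stood at 30.5 and 27.5 CPM in Sham+Veh, 12.9 and 16.5 CPM in CPIP+Veh, and 17.2 and 21.8 CPM in CPIP+ETA. Myh11, smooth muscle myosin, stood at 41.2 and 35.0, 23.9 and 24.6, and 27.7 and 33.5 CPM. Neither list had a member called by edgeR. At an unadjusted p under 0.05, 1 pericyte gene and 6 contractile genes were lower (2.59% of all genes). DESeq2 called 0 and 2 (Acta2 and Myh11), and 0.246% of the genes it tested. The contractile list was chosen with such values known, and the difference between the lists was not tested.

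In CPIP+ETA against CPIP+Veh the pericyte genes had a median of -0.084 with 5 of 8 below 0 (all genes -0.0016, 50.4% below 0), and the contractile genes a median of 0.33 with 3 of 11 below 0. Each median depended on a library: that of the pericyte genes was 0.073 without CPIP+Veh 1, and that of the contractile genes -0.027 without CPIP+ETA 2. In CPIP+ETA against sham the medians were -0.23 (6 of 8 below 0) and -0.39 (11 of 11 below 0), against -0.0020 for all genes with 50.7% below 0. EdgeR called 0 contractile genes in both comparisons, and so did DESeq2. At an unadjusted p under 0.05 there were 2 and 4 contractile genes, against 5.15% and 6.37% of all genes. Without CPIP+Veh 2 the pericyte median in CPIP+Veh against sham was -0.0076, and without CPIP+ETA 1 that in CPIP+ETA against sham was -0.12. In bulk tissue, fewer cells of a type and less RNA per cell cannot be told apart.

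**Figure D3:**
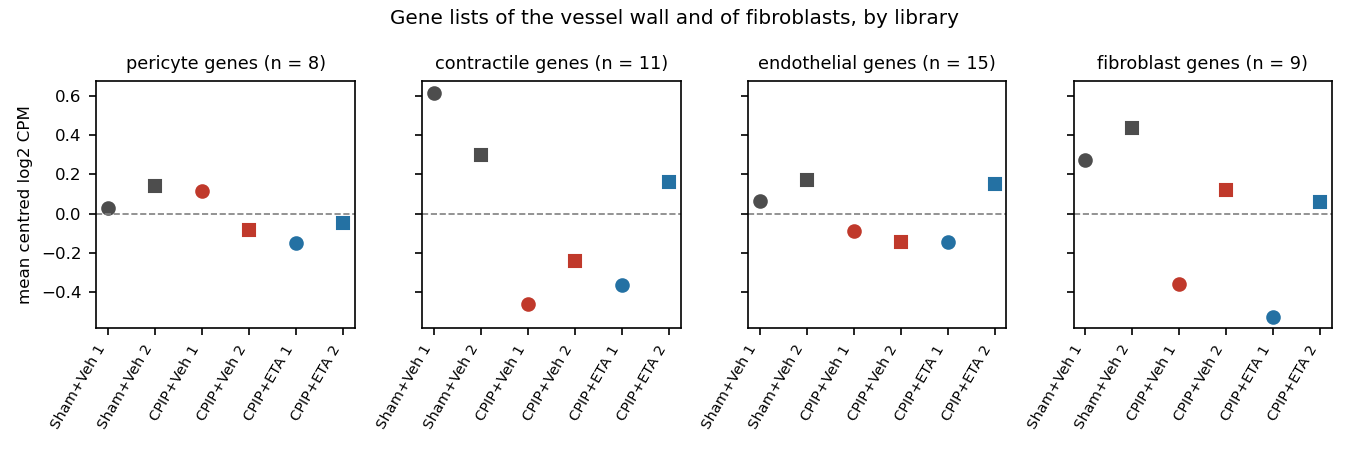
Mean over the tested genes of each list of log2 CPM centred on the gene's mean over the 6 libraries. The mean of the pericyte genes lies between -0.15 and 0.14, and that of the contractile genes between -0.46 in CPIP+Veh 1 and 0.615 in Sham+Veh 1. Members with differences of opposite sign, such as Tbx18 and Abcc9, offset each other in the pericyte mean. Circles are replicate 1, squares replicate 2.

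Of 23 other genes used to mark mural cells, 21 were in the table and 20 were tested; 16, 13 and 15 lay below 0 in the 3 comparisons in the order above, with medians of -0.081, -0.042 and -0.16. EdgeR called 0 of them (2, 1 and 5 lower at an unadjusted p under 0.05, against 2.59%, 2.73% and 3.73% of all genes). DESeq2 called 1, Ebf2, in CPIP+ETA against sham, where it called 0.262% of the genes it tested. Ebf2, a transcription factor of mesenchymal and adipose precursors, had the same order of groups as Tbx18, at 23.1 and 25.6 CPM in Sham+Veh, 17.97 and 20.1 CPM in CPIP+Veh, and 12.3 and 13.8 CPM in CPIP+ETA. Its log2 fold change was -0.90 in CPIP+ETA against sham (SE 0.11) and its adjusted p for any difference among the groups was 0.389 (edgeR). Aoc3, an amine oxidase of vascular smooth muscle and adipocytes, was lower in every CPIP library (18.6 to 29.3 CPM) than in sham (39.4 and 38.4 CPM). The list also holds Rgs4, at 1001 to 1184 CPM, and Mcam, at 286.2 to 321.9 CPM. The part of other cells of the ganglion in the values of this list was not tested.

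Ligands and partners of the pericyte receptors follow. Of 5 PDGF ligand and receptor genes other than Pdgfrb, 3, 5 and 4 lay below 0 (medians -0.099, -0.064 and -0.16), and 0 had an unadjusted p under 0.05 or were called by edgeR or DESeq2. Pdgfb, the endothelial ligand of Pdgfrb, stood at 5.90 and 7.77, 8.20 and 7.16, and 6.70 and 5.72 CPM, with overlapping groups except CPIP+ETA below CPIP+Veh. Pdgfra, the fibroblast receptor of the family, had log2 fold changes of -0.24, -0.023 and -0.26. Of 13 genes of Notch signalling 8, 5 and 5 lay below 0 (medians -0.060, 0.022 and 0.025), and 0 were called by edgeR or DESeq2. At an unadjusted p under 0.05 there were 0, 1 and 3, against 4.94%, 5.15% and 6.37% of all genes. Jag1, a Notch ligand, stood at 61.6 and 64.5, 60.6 and 52.8, and 49.2 and 50.6 CPM, with a log2 fold change of -0.34 (SE 0.078) in CPIP+ETA against sham. Notch1, a receptor of endothelium and glia, had 0.27 (SE 0.062) in the same comparison, with 63.4 and 61.7 CPM in sham and 73.8 and 77.1 CPM with etanercept. The adjusted p for any difference among the groups was 0.79 for Jag1 and 0.754 for Notch1 (edgeR).

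Among 11 genes of angiopoietin and TGF-beta signalling, by which endothelium and mural cells stabilise each other, 7, 8 and 9 lay below 0 (medians -0.10, -0.090 and -0.20). EdgeR and DESeq2 called 0 of them. At an unadjusted p under 0.05 there were 2, 1 and 4, against 4.94%, 5.15% and 6.37% of all genes. Eng, a TGF-beta co-receptor of endothelium, stood at 34.6 and 40.3, 24.9 and 29.1, and 22.3 and 26.0 CPM. Tgfbr1, the type I receptor kinase, stood at 30.7 and 30.8, 34.0 and 36.2, and 29.97 and 29.8 CPM, higher in CPIP+Veh than in the other groups. Their adjusted p for any difference among the groups was 0.675 and 0.858 (edgeR).

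Among genes of the other cells of the vessel wall and ganglion, edgeR called 0 in any list. Of 15 tested endothelial genes 13, 5 and 10 lay below 0 in the 3 comparisons (medians -0.21, 0.15 and -0.095), and DESeq2 called 0. At an unadjusted p under 0.05 there were 5, 2 and 3, against 4.94%, 5.15% and 6.37% of all genes. Among the endothelial genes the VEGF receptor Kdr stood at 23.0 and 24.9, 20.1 and 18.2, and 17.9 and 18.1 CPM. The fenestral protein Plvap stood at 12.7 and 10.6, 6.13 and 7.36, and 7.00 and 10.7 CPM. Of 9 fibroblast genes 9, 6 and 9 lay below 0 (medians -0.33, -0.12 and -0.59), with 3, 1 and 5 at an unadjusted p under 0.05. DESeq2 called 1 (Col15a1), 0 and 2 (Col15a1 and Col1a2) of them, and 0.246%, 0.113% and 0.262% of the genes it tested. The fibroblast list summed to 3669 and 3925 CPM in Sham+Veh, 2872 and 3512 CPM in CPIP+Veh, and 2330 and 2967 CPM in CPIP+ETA. It was lowest with etanercept by mean, as Tbx18 was. Its part in the values of Tbx18, Cspg4, Pdgfrb and the other pericyte genes was not tested. Its members with the lowest p were Col15a1, a basement membrane collagen (32.8 and 40.6, 21.3 and 23.0, and 23.8 and 23.9 CPM), and Col3a1, a fibrillar collagen (1008 and 1059, 712 and 929, and 627 and 745 CPM).

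The 4 tested genes of Schwann cells and oligodendrocyte precursors had medians of -0.040, -0.12 and -0.15 (2, 3 and 3 below 0), with Sox10 at 0.095 and the myelin protein gene Mbp at -0.22 in CPIP+ETA against sham. The 5 satellite glial genes had medians of -0.057, 0.018 and -0.020 (4, 2 and 3 below 0); Fabp7, their fatty acid binding protein, had 0.46 and the glutamine synthetase Glul 0.21 in CPIP+ETA against sham. Red blood cell genes, of which 4 were tested, had medians of -0.25, 1.39 and 1.45. At an unadjusted p under 0.05 there were 0 Schwann and precursor genes in any comparison, 0, 0 and 1 satellite glial genes, 0, 2 and 1 red blood cell genes and 3, 2 and 2 adipocyte genes, and DESeq2 called 0 of them. The shares of all genes under that unadjusted p were 4.94%, 5.15% and 6.37%. The summed level of the red blood cell genes was 79.3 and 75.2 CPM in Sham+Veh, 22.7 and 98.9 CPM in CPIP+Veh, and 262.6 and 156.5 CPM in CPIP+ETA, with Hbb at 23.7 and 34.3, 10.5 and 29.1, and 99.4 and 62.4 CPM and Hba1 at 53.7 and 40.1, 11.8 and 67.3, and 160.0 and 91.4 CPM. The part of blood content in the pericyte values was not tested. The 3 tested adipocyte genes lay below 0 in both comparisons with sham and above 0 in etanercept against vehicle. Their median was -4.62 for CPIP+Veh against sham, -1.37 for CPIP+ETA against sham and 3.24 for etanercept against vehicle. Each of these medians was the value of a single sparsely counted gene, Fabp4 (SE 1.21, 0.9 and 1.28). Sham+Veh libraries held 71 and 26 Fabp4 reads, CPIP+Veh libraries 0 and 4, and CPIP+ETA libraries 6 and 32. The list ranged from -7.15 to -0.58 for CPIP+Veh against sham. Adipoq, an adipokine, stood at 1.19 and 0.657 CPM in sham (22 and 12 reads), at 0 in both CPIP+Veh libraries and at 0.101 and 0.109 CPM in CPIP+ETA (2 reads each). Cfd, the adipsin gene, stood at 6.50 and 6.40, 3.85 and 4.79, and 4.18 and 4.57 CPM.

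The genes whose levels over the 6 libraries most resembled the mean centred profile of the pericyte genes were Mrps24, Fth1, Dcbld1, S1pr3 and Pus7, in that order, of 13304 candidates with at least 1 CPM. The likeness was Pearson's r, from 0.995 for Mrps24, a mitochondrial ribosomal protein, and 0.994 for Fth1, the ferritin heavy chain, to 0.979 for Pus7, a pseudouridine synthase. Pearson's r does not measure the size of a difference: the SD of log2 CPM was only 0.0412 for Mrps24 and 0.112 for Fth1. With 6 libraries and so many candidates the ranking is a description of these libraries. S1pr3, a sphingosine-1-phosphate receptor with r of 0.984, is also in the list of other mural cell genes, at 120.7 and 130.2, 130.1 and 106.4, and 99.2 and 105.5 CPM.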

How the data were processed

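The authors deposited 1 table with an expected count (estimated reads per gene, not always whole) for each gene and library, and columns were assigned by their titles. Per the labels' protocols, RNA came from ganglia kept in RNAlater and was sequenced on the BGISEQ-500; per the submitters' processing notes the genome build was Rnor_6.0. Aligner, counting program, strand handling and annotation were not given in the sources used here. Blank cells (2907 genes) were read as 0, and expected counts were rounded to whole numbers.

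Expression was tested in R 4.3.3 with edgeR 4.0.16: 1 quasi-likelihood fit of all 6 libraries with group as the only term, filterByExpr (minimum count 10, minimum total 15), TMM scaling, and a call at a Benjamini-Hochberg adjusted p under 0.05 over 15531 genes. The SE was taken as the size of the log2 fold change over the root of F, and 95% intervals use the moderated degrees of freedom. The procedure was run on simulated data with known differences. The share it recovered is not reported here, so the text gives no power for 2 libraries per group. The members, gene lists and rule for names were chosen with earlier results of these data known. The rule took all members, from each other list the 2 genes with the lowest p for any difference among the groups, and the 5 genes most like the mean profile. Genes given for a cell type check (Olig1, Olig2, Gpr17, Rgs4, Mcam), as channel partners or as the source of a median (Fabp4) or sum (Apoe) were named besides. Alternatives were other scalings, no filter, DESeq2 1.42.0, a fit of only the compared pair of groups, a block for the title number and each library left out. Promoters came from the RefSeq tables for GRCr8, matched by gene identifier (6 of 8 members), and figures from matplotlib 3.10.9. Poisson intervals cover counting error only.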

Additional observations from a re-analysis of the deposited data

How the results depend on the processing

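With the title number as a replicate block, 0 members were called in any comparison and the Tbx18 log2 fold change in CPIP+ETA against sham was -1.10 (adjusted p = 0.275). The title numbers are not stated to mark a shared animal, batch or day, so they were not treated as pairs. Over all genes tested, deviations of same-numbered libraries from group means correlated at 0.0345, -0.106 and 0.0503, which does not settle single genes. Cspg4 was lower in replicate 1 of every group. With the block its adjusted p in CPIP+ETA against sham was 0.305, and without it 0.665 (edgeR). Of the 312 log2 fold changes of members recomputed over the alternatives, 299 kept their sign and side of the threshold, 12 turned sign and 1 passed, Tbx18 with DESeq2. All 12 came from leaving out 1 library and started between -0.31 and 0.14. Over the 6 fits with 1 library left out, those genes ranged, for CPIP+Veh against sham, from -0.30 to 0.048 (Pdgfrb), -0.35 to 0.038 (Notch3) and -0.24 to 0.67 (Kcnj8). For CPIP+ETA against CPIP+Veh they ranged from -0.29 to 0.069 (Pdgfrb), -0.21 to 0.11 (Notch3) and -0.30 to 0.32 (Higd1b), and for CPIP+ETA against sham from -0.13 to 0.049 (Rgs5) and -0.69 to 0.22 (Kcnj8). Over all genes DESeq2 called 46, 22 and 45 genes in the 3 comparisons, where edgeR called 3, 0 and 3; fitting only the compared groups gave 1 for CPIP+ETA against sham. With 1 library left out the counts were 1 to 3, 0 to 0 and 1 to 2, and the lone library of a group is then taken to vary like the rest. The pericyte medians ran from -0.22 to -0.0076, from -0.19 to 0.073 and from -0.32 to -0.12, and the contractile medians from -0.75 to -0.52, from -0.027 to 0.47 and from -0.52 to -0.29. The cause of these shifts was not tested. Kcnj8 and Higd1b had 19 to 69 reads per library, for which counting error alone gives a coefficient of variation of 12.6% to 22.4%; the sham libraries of Kcnj8 varied by 43.4%.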
